A study of Homo sapiens with 2 samples.

Results

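The genes described here are 10 chaperones, folding enzymes and stress-response genes of the endoplasmic reticulum, of 19775 genes read on the arrays. They are HSPA5, HSP90B1, PDIA3, PDIA4, PDIA6, CALR, CANX, DNAJB9, HERPUD1 and XBP1. The endoplasmic reticulum is the compartment where secreted and membrane proteins enter the secretory pathway, fold, form disulfide bonds and carry their first sugars. When unfolded proteins build up there, the sensors IRE1, PERK and ATF6 raise the transcription of chaperones and of the machinery that degrades misfolded proteins, which is called the unfolded protein response. In gastric mucosa this machinery serves the mucus and enzyme secreting cells. The genes were chosen by name with earlier results of these arrays known, among them the differences of HSPA5 and PDIA4, so all values below are a description and carry no test.

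The Sox2 sample was MKN28 infected with a lentivirus that carries Sox2 and puromycin resistance and selected with puromycin, labelled Sox2 overexpression. The other was MKN28 labelled control, and its own treatment, if any, is not given in the sources used here. MKN28 is an established human gastric cancer line that cell line registers list as derived from another gastric line, MKN74. Each sample was read on 1 Affymetrix array of 54675 probe sets, groups of short probes that each read a stretch of a transcript, so there were no replicates and no difference below has a replicate error. Neither the promoter that drives Sox2 nor whether the infected cells were a single clone is stated in the labels.

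Intensities were deposited on a linear scale, with medians of 34.25 in the Sox2 array and 34.26 in the control array. SOX2, the targeted gene, read 172 in the Sox2 array and 123 in the control array by its brightest probe set (1.40-fold), and its other probe sets gave log2 differences of -0.023, 0.31 and -0.46, so the target gene did not settle the array labels. The names Sox2 array and control array below are those labels, and every direction rests on them. Of 7 epithelial markers, 6 had a brightest probe set past the median of all probe sets, but EPCAM read only 4.96 in the Sox2 array and 6.32 in the control array. So did 6 of 7 gastric, 6 of 7 fibroblast and mesenchymal, 4 of 6 leukocyte and endothelial and 3 of 5 plasma and secretory cell markers. Passing that median therefore does not tell cell types apart. The brightest probe sets of the 7 epithelial markers summed to 460 in the Sox2 array and 498 in the control array, and those of the 5 plasma and secretory cell markers to 204 and 218. Gastric markers summed to 433 and 435, leukocyte and endothelial markers to 348 and 338, and fibroblast and mesenchymal markers, led by VIM, to 7029 and 5429. No marker of these lists differed by 2-fold, and their part in the differences below was not tested. All 24 poly-A spike-in probe sets, which read bacterial RNA added before labelling, were lower in the Sox2 array, with a median log2 difference of -0.75.

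A stretch of promoter DNA shared by most of these genes is shown first. The endoplasmic reticulum stress element is the site through which ATF6, with the CCAAT-binding factor NF-Y, is known to act on chaperone genes, and it reads CCAAT, 9 bases of any kind, then CCACG. RefSeq promoter windows of GRCh38.p14, from 250 bases before to 50 bases after each annotated start, were searched for these letters on both strands. Windows were at hand for 9 of the 10 genes and not for PDIA3. The element was in the windows of 6 of these 9 genes and of 25 of 27305 genes in all, or 0.0916% of genes. Because it is known as a site of chaperone genes, its share here is not independent of the list. Nothing is read from that share. The 250 bases before the start of HSPA5 are printed in full because that gene differed most, on the gene's strand with the element in capitals, at chr9:125241344-125241593, minus strand.
HSPA5: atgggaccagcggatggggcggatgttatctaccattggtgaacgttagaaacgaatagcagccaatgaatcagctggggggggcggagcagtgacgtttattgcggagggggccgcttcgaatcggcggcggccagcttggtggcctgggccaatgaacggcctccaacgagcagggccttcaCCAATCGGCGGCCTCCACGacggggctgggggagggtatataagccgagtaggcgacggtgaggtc

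The matches of the other 5 genes follow with 12 bases on each side, written 5′ to 3′ on the gene's strand, so that the fixed and the free letters can be compared. They lie at chr12:103930204-103930246 and chr12:103930309-103930351 (HSP90B1, plus strand), chr2:10812841-10812883 (PDIA6, minus strand), chr19:12938372-12938414 (CALR, plus strand), chr5:179698766-179698808 (CANX, plus strand) and chr22:28800591-28800633 (XBP1, minus strand). The second HSP90B1 match and the CALR match are on the opposite strand and therefore read CGTGG, 9 bases, then ATTGG.
HSP90B1 first match: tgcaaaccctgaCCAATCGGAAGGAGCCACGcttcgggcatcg
HSP90B1 second match: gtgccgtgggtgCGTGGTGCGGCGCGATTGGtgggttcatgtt
PDIA6: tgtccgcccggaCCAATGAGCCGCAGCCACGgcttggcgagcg
CALR: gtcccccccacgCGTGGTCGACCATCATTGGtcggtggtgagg
CANX: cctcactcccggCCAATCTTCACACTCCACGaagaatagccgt
XBP1: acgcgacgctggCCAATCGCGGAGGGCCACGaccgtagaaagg

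HERPUD1 held a second form of the element, ATTGG, 1 base of any kind, then CCACG, which 19 of 27305 genes held, or 0.0696%. It is shown because HERPUD1 lacked the longer form, and lies at chr16:56932013-56932047, plus strand.
HERPUD1: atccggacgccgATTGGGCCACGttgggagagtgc
The HSPA5 element spans bases 66 to 48 before the annotated start, that of PDIA6 bases 86 to 68 and that of XBP1 bases 52 to 34. Others lie farther away, with CALR at 225 to 207 and the HSP90B1 matches at 194 to 176 and 89 to 71. The CANX match lies at 189 to 171 or 151 to 133, depending on the annotated start. The windows of PDIA4 and DNAJB9 held neither form. TGACGTG, a core bound by XBP1 and ATF6, was in none of the 9 genes' windows and in 2.4% of genes. Every long element holds a CCAAT box by construction, and CCAAT alone was in the windows of all 9 genes and of 39.7% of all genes. A match in letters is not a measured binding site, and a missing match says only that these letters are not in that window.

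The 5 genes with a bright probe set, HSPA5, PDIA4, CALR, PDIA6 and HSP90B1, were all higher in the Sox2 array, by 2.98-fold, 2.08-fold, 2.05-fold, 1.99-fold and 1.43-fold. CANX was 1.34-fold higher, and DNAJB9, HERPUD1 and XBP1 were lower by less than 1.3-fold. These values come from the brightest probe set of each gene, the one with the highest mean of the log2 values of both arrays. A gene passed the filter on dim readings when that probe set read at least 34.25, the median of all probe sets, in either array, which 9 of the 10 genes did and PDIA3 did not. Of the 9, 3 were at least 2-fold higher and 0 at least 2-fold lower, against 2.05% and 0.645% of 14253 genes. Their median log2 difference, Sox2 minus control, was 0.51, against -0.0032 over all 14253. The list was chosen with differences of this contrast known, so nothing is read from these shares. These are bulk extracts, in which more transcript per cell and more cells that hold it cannot be told apart.

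**Figure D1:**
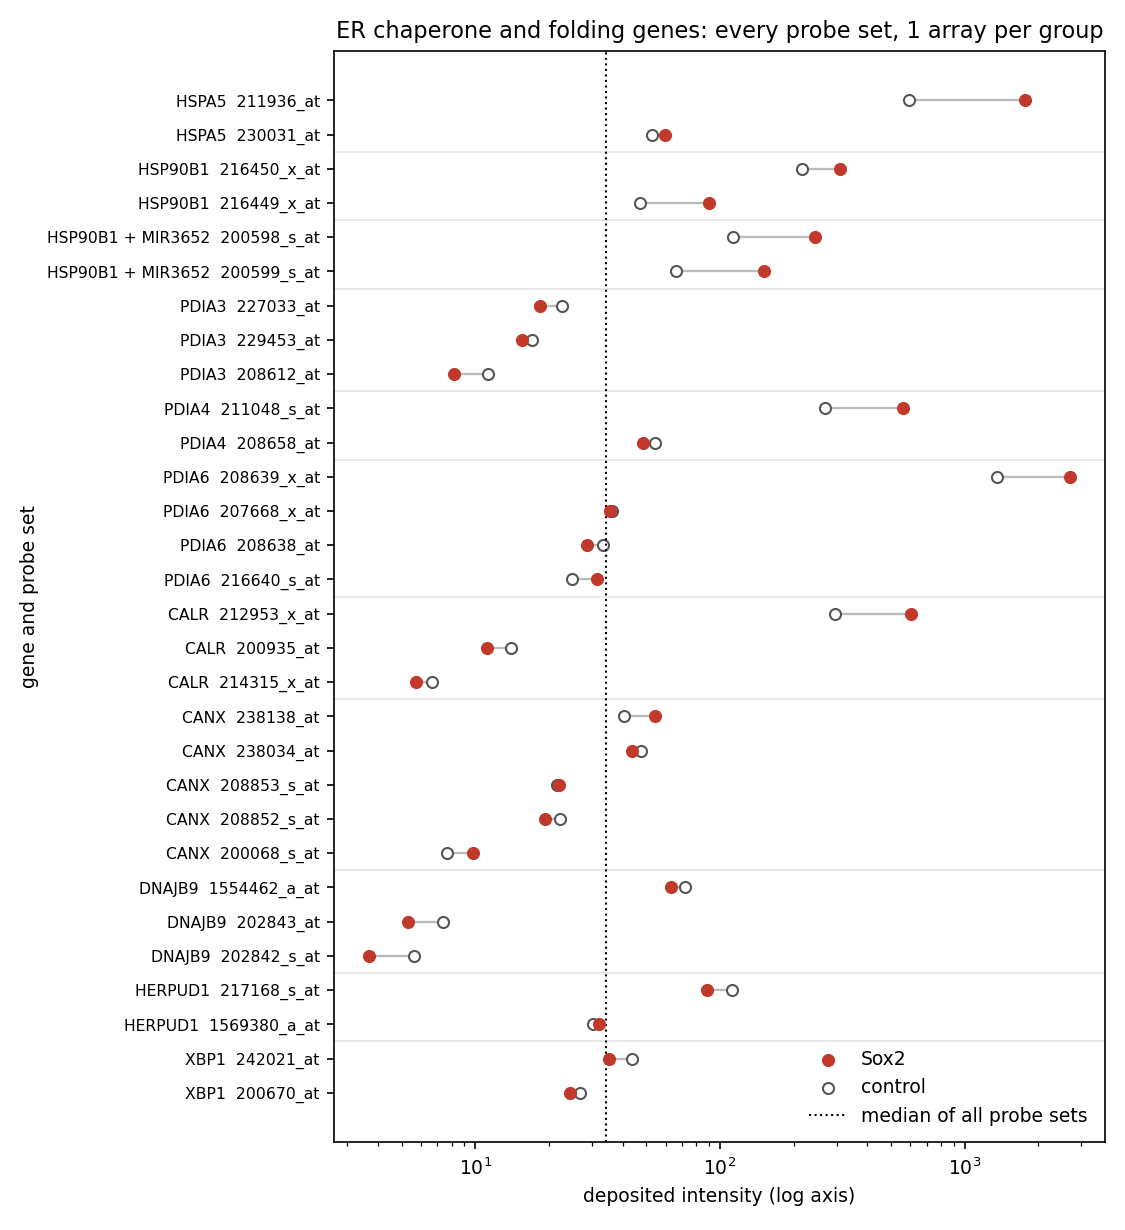
Deposited intensity (log axis) of each of the 28 probe sets that name only 1 of the 10 genes, and of 2 more that name HSP90B1 beside MIR3652, in the Sox2 array (filled) and the control array (open). The bright probe sets of HSPA5, PDIA4, PDIA6 and CALR sit to the right in the Sox2 array, while their dimmer probe sets show small gaps in either direction.

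HSPA5 encodes BiP, the HSP70 of the endoplasmic reticulum, which holds unfolded chains and keeps the stress sensors inactive. Its bright probe set, 211936_at, read 1769 in the Sox2 array and 593 in the control array, a log2 difference of 1.58. Its other probe set, 230031_at, read 59.6 in the Sox2 array and 52.8 in the control array, a difference of 0.18. Both were higher in the Sox2 array, but they differed from each other by 1.40 on the log2 scale, and the bright one carries the whole 2-fold call. HSPA5 ranked 16 of 14253 genes from the highest difference down.

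HSP90B1 encodes GRP94, the HSP90 of the same compartment, which folds integrins and Toll-like receptors. Its brightest probe set, 216450_x_at, read 310 in the Sox2 array and 217 in the control array, a log2 difference of 0.51. The dimmer 216449_x_at read 90.0 in the Sox2 array and 47.1 in the control array, a difference of 0.93. Among the genes with more than 1 probe set past the filter, HSP90B1 had the closest agreement in direction and size, since its differences lay within 0.42 of each other. Both of its probe sets end in _x_at, a suffix that marks probes which may also bind other transcripts.

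CALR and CANX encode calreticulin and calnexin, the soluble and the membrane-bound lectin that bind glycoproteins with trimmed sugars and retain them until folded. The bright CALR probe set, 212953_x_at, read 602 in the Sox2 array and 294 in the control array, a log2 difference of 1.03. The other CALR probe sets were dim and lower, at 11.2 in the Sox2 array against 14.0 in the control array for 200935_at and 5.71 against 6.66 for 214315_x_at. CALR therefore rests on 1 probe set of 3. The other CALR probe sets did not pass the filter, and at such intensities their lower direction may not be readable. CANX had 5 probe sets, of which 3 were higher and 2 lower in the Sox2 array. The brightest, 238138_at, read 54.2 in the Sox2 array and 40.4 in the control array (0.42), and 238034_at read 43.8 and 47.7 (-0.12). The 3 remaining ones read between 9.78 and 21.9 in the Sox2 array and between 7.65 and 22.2 in the control array, so no CANX reading exceeded 54.2.

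PDIA3, PDIA4 and PDIA6 encode disulfide isomerases, also known as ERp57, ERp72 and P5. PDIA3 works with calreticulin and calnexin on glycoproteins, and PDIA6 associates with BiP. PDIA6 read 2687 in the Sox2 array and 1353 in the control array by 208639_x_at, a log2 difference of 0.99 that falls just short of 2-fold. Its other 3 probe sets lay near the median of the arrays: 207668_x_at read 35.5 in the Sox2 array and 36.2 in the control array, 208638_at 28.5 and 33.3, and 216640_s_at 31.4 and 24.8. The near 2-fold gap of PDIA6 was thus seen by 1 of 4 probe sets.

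PDIA4 showed the same split. Its bright probe set, 211048_s_at, read 558 in the Sox2 array and 269 in the control array, a log2 difference of 1.05, while 208658_at read 48.5 and 54.2, a difference of -0.16. PDIA3 was dim by all 3 probe sets, at 18.3, 15.4 and 8.17 in the Sox2 array and 22.7, 17.1 and 11.2 in the control array. All 3 were lower in the Sox2 array, by 0.31, 0.15 and 0.46 on the log2 scale, but none reached the filter, and at such intensities a change of the transcript may not be readable.

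DNAJB9, HERPUD1 and XBP1 respond to stress rather than fold proteins in bulk. DNAJB9, or ERdj4, is a J-domain partner of BiP that represses IRE1. It read 63.3 in the Sox2 array and 71.8 in the control array by 1554462_a_at (-0.18), 5.33 and 7.35 by 202843_at, and 3.69 and 5.60 by 202842_s_at. All 3 readings were lower in the Sox2 array, although the last 2 are far under the filter. HERPUD1, a membrane protein that organises the degradation complex, read 88.3 in the Sox2 array and 112 in the control array by 217168_s_at (-0.34) and 32.0 and 30.2 by 1569380_a_at (0.083). XBP1, the transcription factor whose mRNA IRE1 splices, read 35.2 in the Sox2 array and 43.9 in the control array by 242021_at (-0.32) and 24.5 and 26.8 by 200670_at (-0.13). An intensity per probe set does not separate spliced from unspliced XBP1. None of the 7 readings of these 3 genes was higher in the Sox2 array by more than 0.083.

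Over all 28 probe sets, 12 were higher and 16 lower in the Sox2 array, with 3 at least 2-fold higher and 0 at least 2-fold lower. Of the 28, 14 did not pass the filter, and 10 of these dim ones were lower, so the surplus of lower readings rests on them. Over all genes past the filter, each read by 1 probe set, 49.6% were above 0 and 2.05% at least 2-fold higher. At a cut of 200 the split of the 28 went with brightness, but within HSP90B1 the dimmer probe set had the larger difference. All 5 that averaged an intensity of at least 200 over both arrays were higher, by 0.51 or more and with a median of 1.03. Of the 23 under 200, 7 were higher and 16 lower, between -0.60 and 0.93 and with a median of -0.16. The 2 probe sets that name HSP90B1 beside MIR3652 are not among the 28. They averaged 166 and 100 and were higher by 1.12 and 1.20. The value of 200 was chosen after these data were seen. Probe sets bind with different strength, so their intensities do not rank these transcripts by abundance.

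Bright genes in general differed more between these arrays, and were more often higher than lower in the Sox2 array. Among 1399 genes whose brightest probe set averaged at least 200, 10.9% were at least 2-fold higher and 2.64% at least 2-fold lower, with a median log2 difference of 0.12 and 59.7% of them above 0. All 5 bright genes of this group are among them, and 3 of these 5 were at least 2-fold higher. The robust SD of the differences was 0.29 over 4146 genes averaging under 50, 0.24 over 6159 genes at 50 to 100 and 0.30 over 2549 genes at 100 to 200. It was wider above that, at 0.52 over 915 genes at 200 to 500 and 0.70 over 484 genes at 500 or more. PDIA4, CALR and HSP90B1 fall in the class from 200 to 500, where 10.7% of genes were at least 2-fold higher, and HSPA5 and PDIA6 in the class from 500 upward, where 11.2% were. Beside these spreads the log2 difference of HSPA5 was 1.58, and those of PDIA4, CALR and PDIA6 lay between 0.99 and 1.05. Among the 1399 bright genes HSPA5 ranked 7, PDIA4 125, CALR 141, PDIA6 159 and HSP90B1 411 from the highest difference down.

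**Figure D2:**
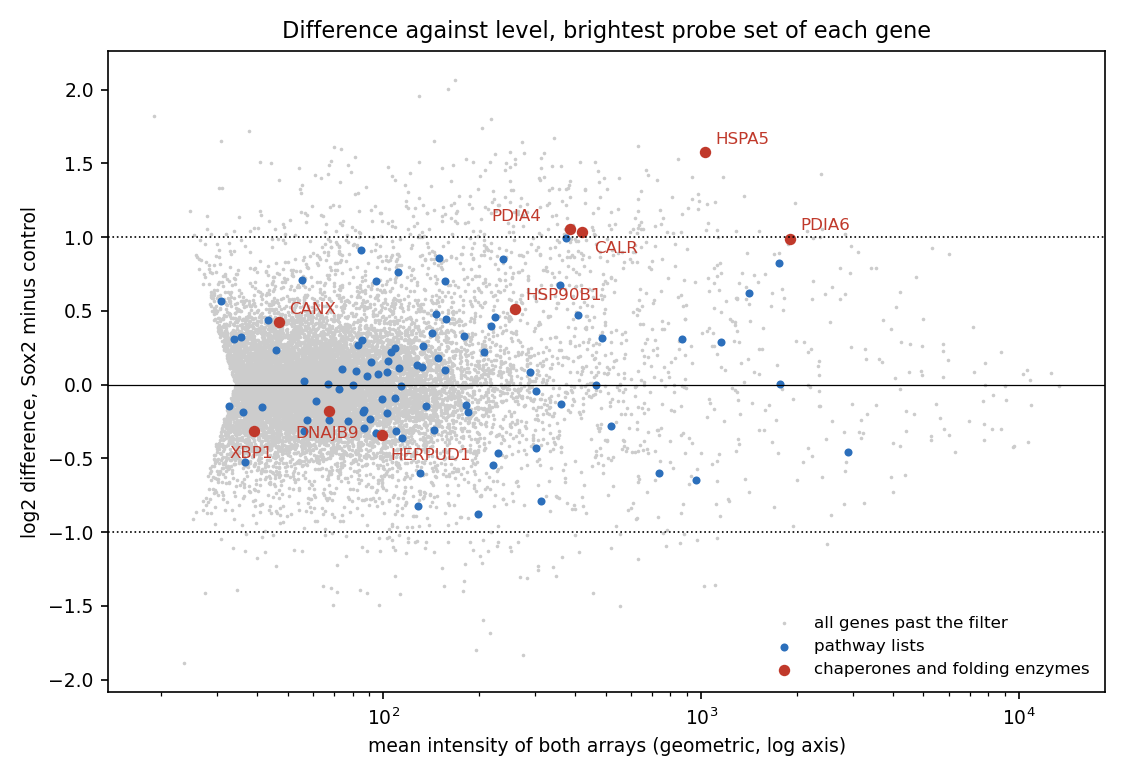
Log2 difference (Sox2 minus control) against the mean intensity of both arrays (log axis) for the brightest probe set of each of 14253 genes. Dotted lines mark 2-fold. HSPA5, PDIA4 and CALR lie above the upper line and PDIA6 just under it, and grey points spread wider at high intensity.

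Agreement between probe sets is the measure of technical spread used here, and the shift of the spike-ins given above is not part of it. The gap between the log2 differences of 2 probe sets of a gene, over the 3471 genes with exactly 2 that passed the filter, gave a robust SD of 0.28 for a single probe set. This SD pools genes of all levels past the filter and is not specific to bright genes. Variation from culture to culture or from array to array is not in it. Of the 10 genes, 5 had at least 2 probe sets past the filter, and in 2 of them, HSPA5 and HSP90B1, all lay on the same side of 0. Each of the 5 had exactly 2, and over all 3471 genes with exactly 2 the share on the same side was 52.5%. Over the 192 genes counted as at least 2-fold higher that had other probe sets past the filter, 374 in all, the median of those others was 0.38 and 75.7% were above 0. Where such a gene averaged at least 200, the median of the others was 0.45 and 77.6% were above 0. The other probe sets past the filter of HSPA5 and PDIA4, at 0.18 and -0.16, were below both medians.

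The calls depended on which probe sets were read and on how the arrays were scaled. With the mean over a gene's probe sets, 6 of the 10 genes passed the filter and none was at 2-fold, with HSPA5 at 0.88. Leaving out probe sets that end in _x_at or _s_at kept HSPA5 at 2-fold and turned PDIA4 to -0.16, while CALR, PDIA6 and HSP90B1 then had no probe set past the filter. Quantile normalization of the arrays and removal of a lowess trend with level each left HSPA5 alone at 2-fold, and a pseudocount of 16 put CALR at 0.99. Quantile normalization also moved the counts over all genes to 213 higher and 117 lower, against 292 higher and 92 lower as deposited. With averaged probe sets 0.564% of all genes were at least 2-fold higher, without those suffixes 1.56% and after lowess removal 1.69%, against 2.05% as deposited. Scaling on the spike-ins shifted the median of all genes to 0.76, with 3217 genes higher and 3 lower, and put DNAJB9, HERPUD1 and XBP1 above 0 at 0.57, 0.41 and 0.43, each below that shifted median.

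**Figure D3:**
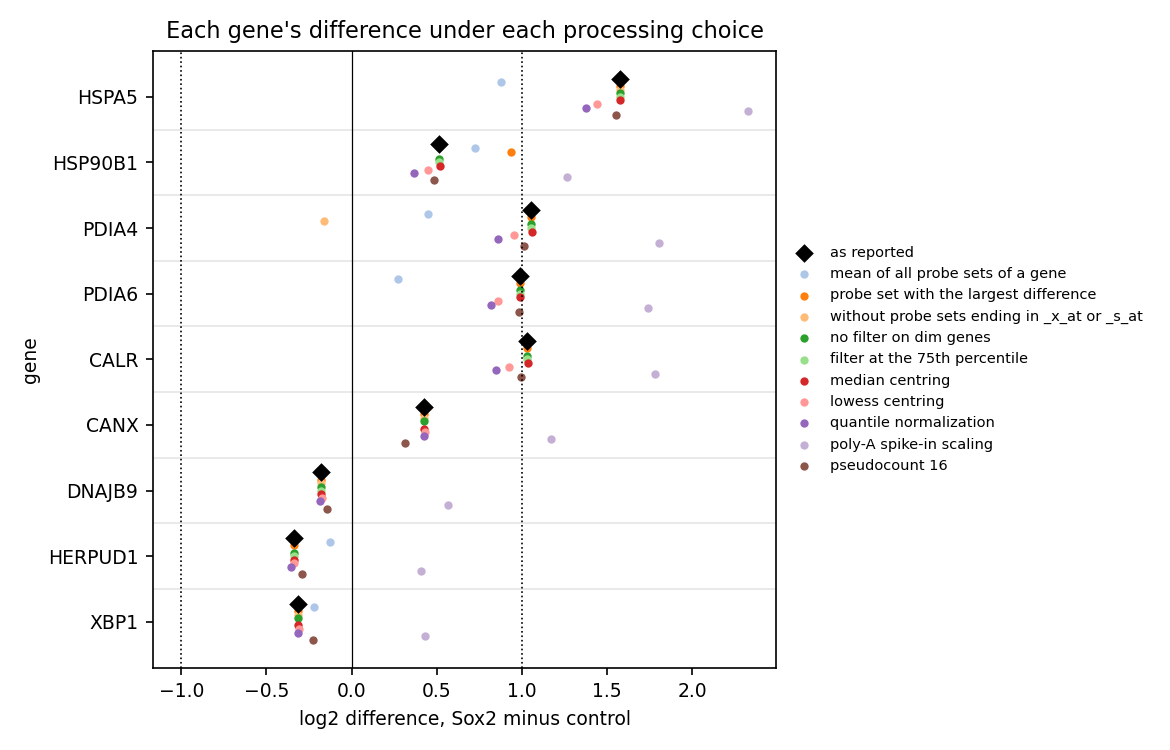
Log2 difference (Sox2 minus control) of the 9 genes past the filter under each processing choice, with the reported value as a black diamond and dotted lines at 2-fold. HSPA5 is at 0.88 or higher in every case shown, and PDIA4 crosses 0 where probe sets ending in _x_at or _s_at are left out.

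The rest of the pathway was set beside these genes through 9 lists of 117 genes by role, of which 88 passed the filter. None of the 88 was at least 2-fold higher or lower, and their median log2 difference was 0.065. Among the 25 of them that averaged at least 200, the median was 0.085. Each list is described by the gene with its largest difference, and genes named beyond that were chosen after their values were seen.

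The list of other BiP cofactors and chaperones had the highest median of the 9 lists. Of 10 cofactors and chaperones past the filter, 8 were above 0 and 2 below, with a median of 0.37. DNAJC1, a J-domain protein of the endoplasmic reticulum membrane, read 529 in the Sox2 array and 266 in the control array (1.99-fold), and the other DNAJC1 probe sets past the filter gave log2 differences of 0.75 and 0.033. DNAJC3, a J-domain protein also known as p58IPK, read 117 and 62.1 (1.88-fold), DNAJB11, or ERdj3, 319 and 177 (1.81-fold), and SEC63, which recruits BiP to the translocon, 71.2 and 43.5 (1.64-fold). Of all genes past the filter, 49.6% were above 0. The other SEC63 probe sets, none past the filter, were all lower, between -0.50 and -0.11, and of the 3 others of DNAJC3, also dim, 2 were lower. DNAJB9, described above, is a J-domain protein too and was lower by all 3 of its probe sets. HYOU1, a nucleotide exchange factor for BiP, read 84.6 in the Sox2 array and 79.5 in the control array, and SIL1, another, 113 and 114. MANF, a secreted stress-induced protein, read 224 and 193, and CNPY2 was lower, at 238 and 411.

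Of 6 stress sensors and activating proteases, 4 were above 0 and 2 below, with a median of 0.091. ATF6B differed most, at 202 in the Sox2 array and 160 in the control array (0.33). ERN1, which encodes IRE1, read 105 and 112, EIF2AK3, which encodes PERK, 109 and 97.6, and ATF6 119 and 100.04. Of 8 PERK branch and amino acid stress genes past the filter, 4 were above 0 and 4 below, with a median of -0.042. TRIB3, a pseudokinase target of this branch, read 106 in the Sox2 array and 160 in the control array (-0.60), though its other probe set past the filter gave 0.014. ATF4, the factor that PERK signalling translates, read 173 and 198, and DDIT3, which encodes CHOP, read 28.5 and 29.1, under the filter.

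Other folding enzymes went either way. Of 9 disulfide isomerases and oxidases past the filter, 6 were above 0 and 3 below, with ERP44, which retains oxidases and unassembled antibodies, at 145 in the Sox2 array and 85.4 in the control array (0.76) by 1 probe set and 0.075 by another. P4HB, the founding disulfide isomerase, read 58.9 and 63.6. Of 8 genes of glycan trimming and the lectin cycle, 3 were above 0 and 5 below, and PRKCSH, the beta subunit of glucosidase II, read 2342 and 1324 (0.82). Of 6 prolyl isomerases, 1 was above 0 and 5 below, and FKBP11 read 101 and 130 (-0.36).

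The medians of the degradation and translocation genes lay near 0. Of 14 degradation genes past the filter, 7 were above 0 and 7 below, with a median of 0.015. DERL1, a channel protein of retrotranslocation, read 146 in the Sox2 array and 269 in the control array (-0.88). Its other probe set past the filter gave -0.85. Of 19 translocon and oligosaccharyl transferase genes, 9 were above 0 and 10 below, with a median of -0.0033, and STT3A, a catalytic subunit of the transferase, read 202 and 111 (0.86). The probe sets of RPN2, also of this list, gave 0.62, 0.78 and 0.54. Of 8 KDEL receptor and export genes, 6 were above 0 and 2 below, and SEC23B, a coat protein of export vesicles, read 199 and 122 (0.70). KDELR1, a receptor that returns chaperones ending in KDEL from the Golgi, read 299 and 282.

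**Figure D4:**
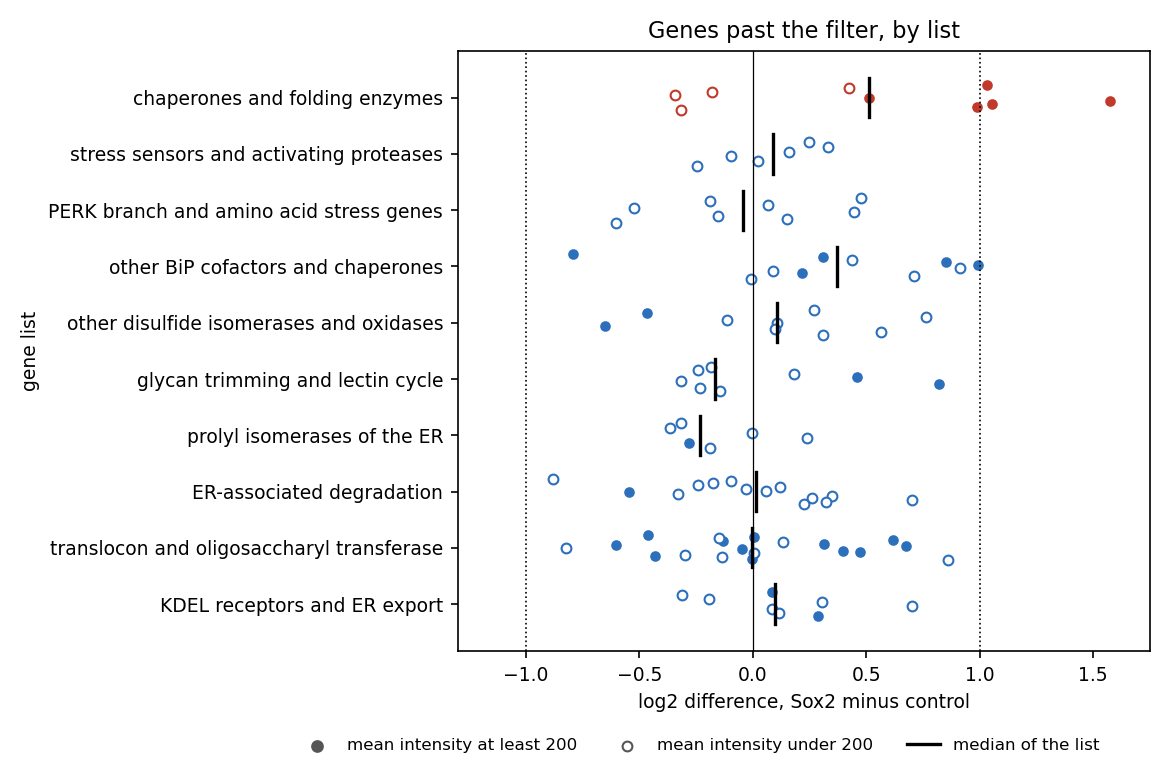
Log2 difference (Sox2 minus control) of each gene past the filter in the 10 genes (red) and in 9 pathway lists (blue), filled where the mean intensity was at least 200. Vertical bars are list medians and dotted lines mark 2-fold. No gene of the pathway lists reaches 2-fold, and the list of other BiP cofactors and chaperones has the highest median of them, at 0.37.

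The differences were also set beside the stress element printed above, as a description only. Of all 14 genes past the filter that hold it, 14.3% were at least 2-fold higher, which are the 2 genes HSPA5 and CALR. Among 11168 genes whose windows lack it, the share was 2.27%. Among genes averaging at least 200, it was 33.3% of 6 genes with the element and 12.1% of 1134 without. Within the group of genes described here the shares were equal, at 33.3% of 6 genes with the element and 33.3% of 3 without. HSPA5 and CALR belong to the list chosen with differences of this contrast known, so nothing is read from these shares. The 6 genes of this group that hold the element had a median log2 difference of 0.75. Their values were 1.58 for HSPA5, 1.03 for CALR, 0.99 for PDIA6, 0.51 for HSP90B1, 0.42 for CANX and -0.32 for XBP1. PDIA4, at 1.05, held no exact match, and nor did DNAJB9. Outside the group, 8 genes with the element passed the filter, and they lay between -0.31 and 0.44 with a median of -0.0019. Among them, SERP1, which protects membrane proteins under stress, read 428 in the Sox2 array and 431 in the control array, FICD, which modifies BiP, 46.6 and 46.4, and CRELD2, a secreted stress-induced protein, 50.5 and 37.3. These 3 were chosen after their values were seen.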

How the data were processed

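Total RNA from MKN28 cells, 1 sample for Sox2 and 1 for control, was read as biotin-labelled cRNA on 1 Affymetrix array each. The authors deposited 1 linear intensity per probe set and array, and the only tool named is RMA, per the submitters' processing notes, with no version or settings given in the sources used here. RMA normally ends in log2 values, so the last step by which the authors made these intensities is unknown. Here log2 was taken with no further scaling (median log2 difference over all probe sets -0.0027). Probe sets were named through the platform annotation, with 41091 naming 1 gene. Each gene was read by its brightest probe set over both arrays, and genes whose higher value was under 34.25 were left out. With 1 array per group there is no test, and genes were counted at 2-fold. Members and lists were chosen with earlier results of these data known. The genes named are all members, SOX2, the markers and the gene with the largest difference of each pathway list, beside further pathway genes and genes with the stress element that were chosen after their values were seen. A few listed genes are not analysed here. Counting and motif search were tested on simulated data. Alternatives covered probe set choice, filter, centring (lowess span 0.3), scaling, pseudocount (16) and fold. Counts of genes averaging at least 200, and use of probe sets naming several genes, were added after seeing the data. The number of arrays limits precision. Python 3.11.15, numpy 2.4.6, pandas 2.3.3, statsmodels 0.14.6 and matplotlib 3.10.9 were used.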

Additional observations from a re-analysis of the deposited data

Results flagged for a closer look

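A signal lay outside the probe sets compared above. Besides the probe sets that name HSP90B1 alone, 2 name it together with MIR3652, a microRNA gene, and were therefore not used for HSP90B1. The first, 200598_s_at, read 245 in the Sox2 array and 113 in the control array, a log2 difference of 1.12. The second, 200599_s_at, read 152 in the Sox2 array and 66.0 in the control array, a difference of 1.20. Both exceed the 2-fold size that neither of the HSP90B1 probe sets in use reached, and all 4 readings were higher in the Sox2 array. Which transcript they read was not tested.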

How the results depend on the processing

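Against 3 genes at least 2-fold higher as reported, 0 remained at that size with averaged probe sets, 1 when probe sets with the suffix _x_at or _s_at were left out, 1 with lowess centring, 1 with quantile normalization and 6 with spike-in scaling. Over all genes that share was 2.05% as reported, then 0.564%, 1.56%, 1.69%, 1.49% and 20.8% in the same order. The cause of these changes was not tested, except that the first 2 choices change the probe sets read and the last adds 1 shift to every gene. No setting run gave a gene at least 2-fold lower. The median log2 difference of 0.51 over 9 genes became 0.93 with the probe set of largest difference and 1.26 with spike-in scaling, each over 9 genes. It was -0.16 over the 5 genes left without the _x_at and _s_at probe sets. With the filter at the 75th percentile it was 0.99 over 7 genes, and 1.03 over the 5 genes averaging at least 200. These last 3 medians cover fewer genes, so they are not shifts of the same genes alone. PDIA4 reversed to -0.16 without the _x_at and _s_at probe sets. The number of genes with all probe sets on the same side, 2 of 5, became 1 of 2 without those probe sets, 5 of 10 with no filter, 1 of 1 with the filter at the 75th percentile and 6 of 6 with spike-in scaling, and it has no value where 1 value stands for a gene. Spike-in scaling subtracts the spike-in median of -0.75 from every log2 difference. All probe sets move up alike, so 6 of 6 does not show closer agreement. No share over all genes is given for these settings, so nothing is read from these counts. A pseudocount of 16 ended the call of CALR, at 0.99, and left 2 genes at 2-fold, beside 1.46% of all genes. The other settings stayed within 1.5 times these counts, or within the probe set SD of 0.28 for the median. No paired analysis was possible because each group has 1 array. Dim probe sets limit what can be read for PDIA3, CANX and XBP1.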
